A study of Macaca mulatta with 8 samples.

Results

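The Gq and phospholipase C route was followed in primary rhesus macaque microglia through 10 genes, namely the G protein alpha subunits GNAQ and GNA11, the phospholipase C enzymes PLCB2, PLCB3 and PLCG2, the inositol trisphosphate (IP3) receptors ITPR1, ITPR2 and ITPR3, and the protein kinases C PRKCD and PRKCB. They were chosen by gene symbol as effectors below a Gq-coupled receptor such as P2RY6, and not by their counts or their change with MRS2578, although earlier results of these data were known by then. Each symbol matched 1 of the 35432 genes in the count files, and all 10 were among the 12131 genes that passed a filter on low counts. Microglia, the macrophages that live in brain tissue, came here from subcortical white matter of 4 adult animals. Donors R07110 and R12016 were males of 13 and 9 years, and donors R02046 and R14143 were females of 19 and 6 years. All cultures received serum and M-CSF, a growth factor for macrophages, and were harvested at 8 days. Cells of the uLPS group spent 16 h with uLPS, an ultrapure lipopolysaccharide that engages TLR4, at 10 µg/mL, and the uLPS+MRS2578 group received 5 µM MRS2578, an antagonist of P2RY6, 1 h before the same dose of uLPS. Each donor gave 1 library of each group, so that n = 4 per group, and no library without uLPS is used here.

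A Gq-coupled receptor that binds its ligand loads GTP onto an alpha subunit of the Gq class, which then activates a phospholipase C of the beta type. Phospholipase C cleaves the membrane lipid PIP2 into IP3, which opens calcium channels of the endoplasmic reticulum, and diacylglycerol, which recruits protein kinase C to the membrane. In microglia, P2RY6 is known as a receptor for extracellular UDP that uses this route, while PLCG2 reaches the same messengers from tyrosine kinases below immune receptors. RNA levels of these genes report the supply of the components and not the activity of the route.

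Total counts ran from 9231109 to 32790348 per library, and a gene with no read could still be present at up to 3 counts, which correspond to 0.325 CPM (counts scaled to a common library total, here by TMM for all levels but this limit) in the shallowest library and 0.0915 CPM in the deepest, for counting error only. The fewest counts of any member in any library were 44, so that all 10 were detected in all 8 libraries. Of the 12 microglia and macrophage markers found, 10 had a mean of at least 1 CPM, with CSF1R at 1247, CD68 at 1058, C1QB at 492 and SPI1 at 472 CPM. Among the other microglial markers, GPR34, SALL1 and P2RY12 had means of 62.2, 19.7 and 9.09 CPM. CX3CR1 and TMEM119 had means near the limit of detection, at 0.392 and 0.0903 CPM, although CX3CR1 reached 2.21 CPM in its highest library. Markers of other cell types were present as well. Those of fibroblasts had 5 of 5 at a mean of at least 1 CPM. Their summed levels lay between 90.1 and 1190 CPM with uLPS and between 203 and 529 CPM with uLPS+MRS2578. That mean was reached by 4 of 6 astrocyte markers (summed 88.6 to 205 CPM with uLPS) and 2 of 5 oligodendrocyte markers (238 to 407 CPM). It was also reached by 4 of 7 endothelial and mural markers (158 to 244 CPM with uLPS) and 1 of 6 neuronal markers. In such bulk RNA, fewer cells of a type and less RNA per cell cannot be told apart. The conditions of donor R02046 are uncertain, because 6 of the 8 CPM columns in the study's supplementary table of regulated genes were proportional to the library with the same label, while the 2 columns of R02046 were proportional to each other's library. Results are therefore given with the deposited labels, with the 2 libraries of R02046 exchanged, and without that donor.

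The members are paralogs within 4 families, and a read that fits 2 genes equally was not counted, so their coding sequences were compared in the RefSeq transcripts of Mmul_10. The most alike stretch of 90 bases is shown for the pairs of alpha subunits and beta-type phospholipases C, because these show how much sequence separates the genes whose counts are set side by side. Capitals mark the bases that differ within each pair, and all sequences read 5′ to 3′ on the coding strand. The first pair lies in 1 exon of each gene, at chr15:93287874-93287963 (minus strand) in GNAQ and at chr19:2981238-2981327 (plus strand) in GNA11.
GNAQ: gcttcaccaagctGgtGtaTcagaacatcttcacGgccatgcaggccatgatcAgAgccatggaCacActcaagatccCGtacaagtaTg
GNA11: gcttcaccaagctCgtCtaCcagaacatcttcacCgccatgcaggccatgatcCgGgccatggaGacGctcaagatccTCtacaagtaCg
The second pair spans more than 1 exon, within chr7:16704591-16704821 (minus strand) in PLCB2 and within chr14:10281656-10282031 (minus strand) in PLCB3.
PLCB2: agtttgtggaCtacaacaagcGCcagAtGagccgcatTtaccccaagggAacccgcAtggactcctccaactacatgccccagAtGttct
PLCB3: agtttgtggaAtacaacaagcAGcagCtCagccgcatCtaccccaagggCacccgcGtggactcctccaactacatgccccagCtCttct
Even in these stretches, 11 bases differ between GNAQ and GNA11 and 10 between PLCB2 and PLCB3. The longest run of identical coding bases was 26 in the first pair and 26 in the second. It was 23 between ITPR2 and ITPR3, and 15 between PRKCB and PRKCD, which were most alike over 76 of 90 bases. PLCG2 was more distant, with 60 of 90 bases identical to PLCB2 at best.

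Levels were compared between genes only after division by exon length, as TMM-scaled CPM per kb of annotated exon (mean ± SD, n = 4). With uLPS, PRKCD was the highest member at 140.2 ± 34.2 CPM per kb, followed by GNA11 at 27.2 ± 1.48 and PLCB3 at 25.4 ± 2.79. PLCG2 at 13.9 ± 0.856, GNAQ at 12.9 ± 1.04 and ITPR2 at 11.99 ± 2.67 formed a middle group, and ITPR1 at 6.20 ± 2.92, PRKCB at 3.16 ± 0.921, PLCB2 at 2.25 ± 1.77 and ITPR3 at 0.543 ± 0.207 lay below it. Of the 9 pairs of neighbours in this order, 2 had ranges that did not overlap, namely PRKCD over GNA11, by 5.16-fold, and PLCB3 over PLCG2, by 1.84-fold. ITPR2 exceeded ITPR1 and PLCB2 exceeded ITPR3 in 4 of 4 donors, although their ranges overlapped. The other 5 pairs of neighbours overlapped and kept their order in 3 of 4 donors. With uLPS+MRS2578 the order was the same except that PLCB2 stood above PRKCB.

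**Figure D1:**
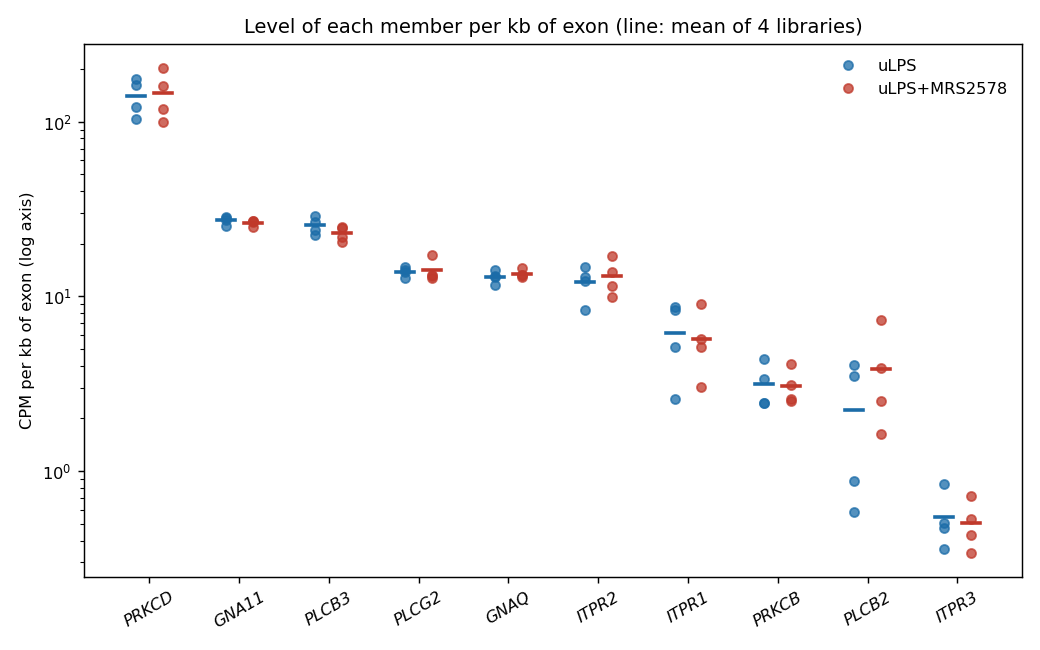
Level of each member in CPM per kb of exon (log axis) in the 4 uLPS libraries (blue) and the 4 uLPS+MRS2578 libraries (red), in the order of the uLPS means; points are libraries and lines are means. PRKCD stands above all other members in every library, and PLCB2 and ITPR1 have the widest spread.

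With the deposited labels, none of the 10 members differed between uLPS+MRS2578 and uLPS in edgeR's quasi-likelihood test with donor as a block. The smallest p among them, adjusted over all 12131 genes, was 0.877. Of all tested genes, 0% passed an adjusted p of 0.05. An unadjusted p under 0.05 was found for 5.14% of all genes and for 0 of the 10 members. When the R02046 libraries were exchanged, 0 members passed the adjusted threshold, which 0.618% of all genes passed (12 higher and 63 lower). PLCB2 and ITPR1 then had an unadjusted p under 0.05, which 16.5% of all genes had. Without R02046, 0 members passed the adjusted threshold, as did 0% of 12295 tested genes, and only PLCB2 had an unadjusted p under 0.05, which 13.6% of all genes had. The members' median log2 fold change was -0.01 as deposited, -0.12 with the exchange and -0.07 without R02046, and that of all genes was -0.01, 0.00117 and -0.00351. In size regardless of sign, the median change of the members was 0.07, 0.17 and 0.09 on the log2 scale, against 0.12, 0.15 and 0.16 for all genes.

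**Figure D2:**
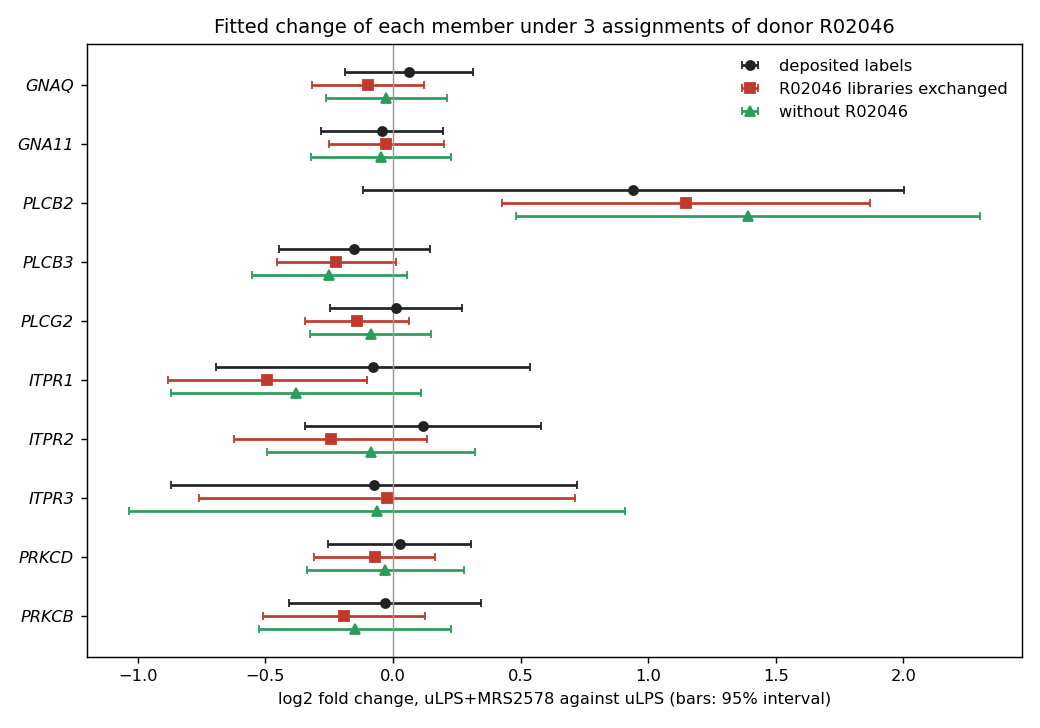
Log2 fold change of each member (uLPS+MRS2578 against uLPS) with its 95% interval from the edgeR fit, with the deposited labels (black circles), with the R02046 libraries exchanged (red squares) and without R02046 (green triangles). The intervals of PLCB2 exclude 0 in the last 2 assignments and that of ITPR1 in the exchanged one; none of these passed adjustment over all genes.

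GNAQ and GNA11 carry the signal from the receptor to phospholipase C, and they had the smallest range of the 10 members over the 8 libraries. GNAQ (ENSMMUG00000055875), at chr15:93081310-93404683 on the minus strand, was at 88.0, 80.0, 72.2 and 81.3 CPM with uLPS in R07110, R12016, R02046 and R14143. With uLPS+MRS2578 it was at 80.2, 82.4, 90.6 and 82.4 CPM in the same order of donors. The groups overlapped, and the lowest and the highest value were both from R02046. The log2 fold change was 0.06 ± 0.11 (SE; 95% interval -0.19 to 0.31, edgeR adjusted p = 0.945) with the deposited labels, -0.10 ± 0.09 with the exchange and -0.03 ± 0.10 without R02046, so that its sign depended on R02046. GNA11 (ENSMMUG00000002961), at chr19:2964139-2991937 on the plus strand, ran from 34.5 to 39.3 CPM over all 8 libraries, and its log2 fold change was -0.04 ± 0.10 (95% interval -0.28 to 0.20, edgeR adjusted p = 0.960), -0.03 ± 0.10 with the exchange and -0.05 ± 0.11 without R02046. Per kb of exon, GNA11 made up 67.8% ± 2.65 of the RNA of both genes with uLPS and 66.2% ± 1.38 with uLPS+MRS2578 (SD, n = 4). This share rests on annotated exon lengths of 1378 bases for GNA11 and 6231 for GNAQ, and in CPM, not divided by length, GNAQ had the higher values. The mean change of the log2 ratio of GNAQ to GNA11 within donors was 0.11 ± 0.25 (SD, exact sign-flip permutation test, two-sided p = 0.5, n = 4). With 4 donors there are 16 sign arrangements, so that this test cannot give a p under 2 in 16.

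PLCB2 showed the largest fitted change of the 10 members, and the widest range. PLCB2 (ENSMMUG00000020535), at chr7:16697480-16717629 on the minus strand, encodes a phospholipase C of the beta type that blood cells are known to express. With uLPS it was at 19.3, 2.81, 16.8 and 4.21 CPM in R07110, R12016, R02046 and R14143, and with uLPS+MRS2578 at 35.0, 18.7, 12.1 and 7.82 CPM. It was higher with uLPS+MRS2578 in the 3 donors whose labels are not in question and lower in the library so labelled from R02046, and the groups overlapped because donors differed by up to 4.46-fold in their means. The count in R12016 was 44 with uLPS and 296 with uLPS+MRS2578.

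As deposited, the labels gave PLCB2 a log2 fold change of 0.94 ± 0.45 (SE; 95% interval -0.12 to 2.00, edgeR adjusted p = 0.877). It was 1.15 ± 0.31 with the exchange (0.43 to 1.87, adjusted p = 0.137) and 1.39 ± 0.37 without R02046 (0.48 to 2.30, adjusted p = 0.226). Donor R12016 carried much of this value, as the log2 fold change without it was 0.45 ± 0.29 with the deposited labels and 0.75 ± 0.16 with the exchange. No member moved in the same direction in all 4 donors with the deposited labels, as 13% of all genes did. With the exchange, PLCB2 alone did so, against 23.9% of all genes. Over R07110, R12016 and R14143, 36.8% of all genes kept their direction, and of the members only PLCB2. The share of counts from mitochondrial genes went in R07110 from 0.275% to 0.187% and in R12016 from 0.313% to 0.187%. It differed less in R14143, from 0.356% to 0.337%, and in R02046 as labelled, from 0.310% to 0.298%. PLCB2 differed by 0.85 in R07110, 2.69 in R12016, 0.88 in R14143 and -0.47 in R02046 as labelled, on the log2 scale. The part of the mitochondrial share in the PLCB2 values was not tested.

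PLCB3, which encodes the beta-type enzyme with the most RNA here, did not pass the test in any assignment. PLCB3 (ENSMMUG00000012948), at chr14:10274345-10292537 on the minus strand, was at 146, 136, 114 and 123 CPM with uLPS and at 111, 104, 126 and 126 CPM with uLPS+MRS2578, in the same order of donors. PLCB3 was lower with uLPS+MRS2578 in R07110 and R12016, and slightly higher in R14143 and in the library so labelled from R02046. The groups overlapped, and with the exchange PLCB3 was lower in 3 of 4 donors. Its log2 fold change was -0.15 ± 0.12 (95% interval -0.45 to 0.14, edgeR adjusted p = 0.901), -0.22 ± 0.10 with the exchange and -0.25 ± 0.12 without R02046. The log2 ratio of PLCB2 to PLCB3, which does not depend on how libraries are scaled, changed by 1.26, 3.12, -0.61 and 0.85 in the 4 donors, in the same order. Its mean change was 1.15 ± 1.54 (SD, exact sign-flip permutation test, p = 0.25, n = 4), and 1.46 ± 1.14 with the exchange, where the ratio was higher in 4 of 4 donors (the smallest p that this exact test allows). Without R12016, the mean change with the deposited labels was 0.50.

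PLCG2 (ENSMMUG00000005334), at chr20:68792174-68987061 on the plus strand, is activated by tyrosine kinases rather than by Gq. It ran from 110.3 to 128 CPM with uLPS and from 111 to 149 CPM with uLPS+MRS2578, with the highest value in R02046. The log2 fold change was 0.01 ± 0.11 (95% interval -0.25 to 0.27, edgeR adjusted p = 0.993), -0.14 ± 0.09 with the exchange and -0.09 ± 0.10 without R02046. Of the summed level of the 3 phospholipases C per kb of exon, PLCB3 made up 61.2% ± 3.49, PLCG2 33.5% ± 2.25 and PLCB2 5.29% ± 3.97 with uLPS. With uLPS+MRS2578 the shares were 56.2% ± 4.69, 34.4% ± 3.42 and 9.41% ± 5.96 (SD, n = 4), and the range of PLCB2, from 4.14% to 17.4%, overlapped that with uLPS, from 1.39% to 8.84%.

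**Figure D3:**
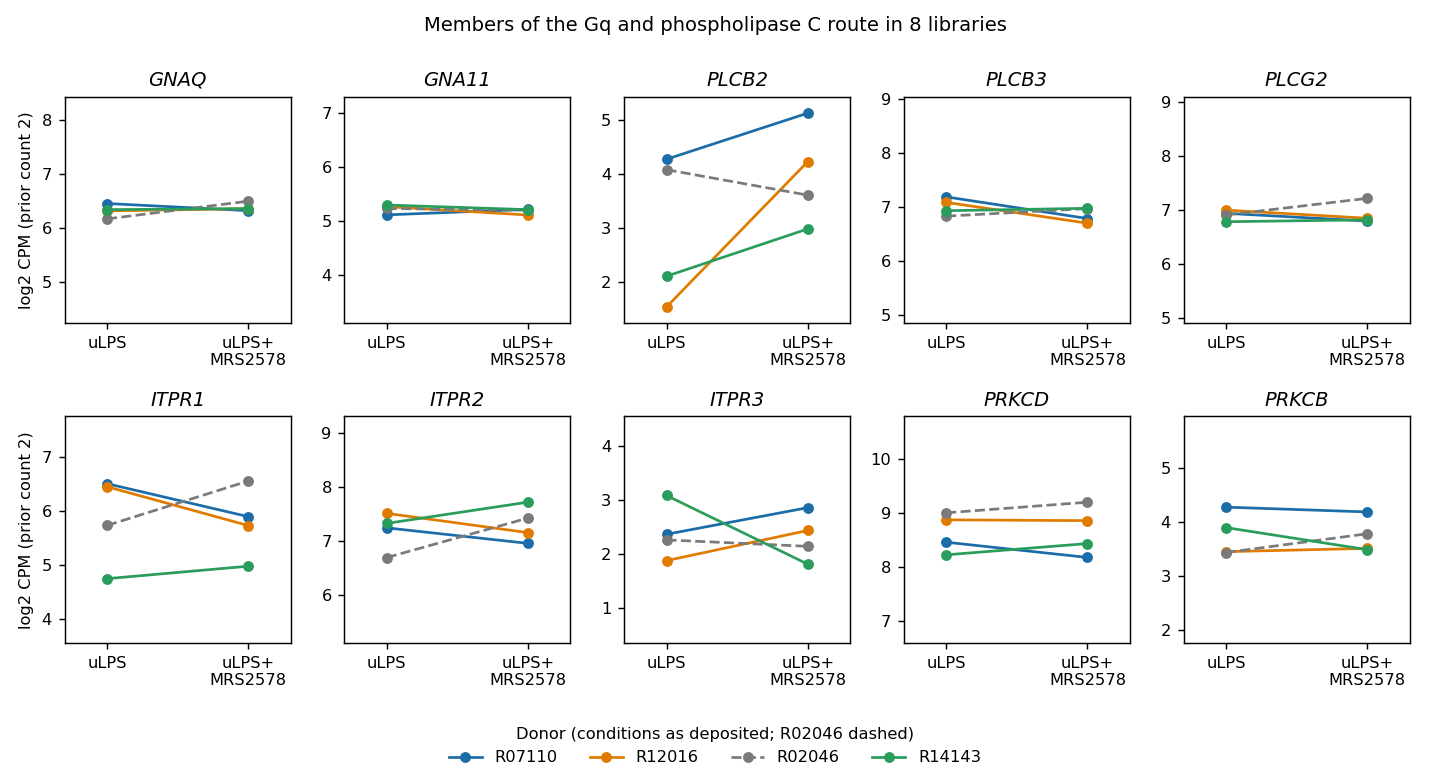
Log2 CPM (prior count 2) of each member with uLPS and with uLPS+MRS2578; lines join the 2 libraries of a donor, the line of R02046 is dashed, and every panel spans the same number of log2 units. PLCB2 is higher with uLPS+MRS2578 along 3 of 4 lines, ITPR1 and ITPR2 are lower in R07110 and R12016 and higher in the other donors, and the lines of GNAQ and GNA11 are nearly flat.

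The IP3 receptors are the calcium channels that release the endoplasmic reticulum store. ITPR2 was the most abundant of them, at 64.6% ± 9.93 of the summed level per kb with uLPS, followed by ITPR1 at 32.3% ± 11.2 and ITPR3 at 3.11% ± 1.56 (SD, n = 4). With uLPS+MRS2578 the shares were 67.6% ± 11.1, 29.6% ± 10.5 and 2.75% ± 1.25, and the ranges of each gene overlapped between the groups.

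ITPR1 (ENSMMUG00000012574), at chr2:135800578-136155662 on the plus strand, was at 90.3, 86.9, 52.8 and 26.6 CPM with uLPS in R07110, R12016, R02046 and R14143. With uLPS+MRS2578 it was at 59.1, 52.7, 93.5 and 31.2 CPM. ITPR1 was lower with the antagonist in R07110 and R12016, and higher in R14143 and in the library so labelled from R02046. With the exchange, ITPR1 was lower in 3 of 4 donors and higher in R14143. R14143 was lowest in each group. Its log2 fold change was -0.08 ± 0.26 (95% interval -0.69 to 0.54, edgeR adjusted p = 0.975), -0.49 ± 0.17 with the exchange (-0.88 to -0.10, adjusted p = 0.207) and -0.38 ± 0.20 without R02046 (adjusted p = 0.478).

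ITPR2 (ENSMMUG00000023128), at chr11:27644569-28141361 on the minus strand, was at 151, 182, 103 and 159.8 CPM with uLPS and at 124, 142, 171 and 209.9 CPM with uLPS+MRS2578. Its differences had the same sign as those of ITPR1 in every donor, and the groups overlapped. The log2 fold change was 0.12 ± 0.19 with the deposited labels (95% interval -0.34 to 0.58, edgeR adjusted p = 0.945), -0.24 ± 0.16 with the exchange and -0.09 ± 0.17 without R02046. The log2 ratio of ITPR1 to ITPR2 changed by -0.32, -0.36, 0.09 and -0.16 in the 4 donors, with a mean of -0.19 ± 0.21 (SD, exact sign-flip permutation test, p = 0.25, n = 4). With the exchange the mean was -0.24 ± 0.13, and the ratio was lower in 4 of 4 donors (again the smallest p that the exact test allows). ITPR2 shares 517 exonic bases with the overlapping gene LOC114670815, and ITPR1 shares 9 with LOC114676384, so that reads there could have been lost or assigned to either gene.

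ITPR3 (ENSMMUG00000047729), at chr4:135787148-135864767 on the minus strand, was the scarcest member, at 5.05, 3.57, 4.69 and 8.38 CPM with uLPS and at 7.15, 5.31, 4.31 and 3.41 CPM with uLPS+MRS2578. It was higher with the antagonist in R07110 and R12016 and lower in R14143, where the count went from 165 to 61. The log2 fold change was -0.07 ± 0.33 (95% interval -0.87 to 0.72, edgeR adjusted p = 0.985), -0.02 ± 0.32 with the exchange and -0.06 ± 0.40 without R02046. The mean change of the log2 ratio of ITPR3 to ITPR2 was -0.21 ± 1.28 (SD, exact sign-flip permutation test, p = 0.875, n = 4). In R14143 the summed fibroblast markers went from 1190 to 430 CPM as ITPR3 went down, while in R07110 they went from 150 to 232 and in R12016 from 90.1 to 203 as it went up. In R02046 as labelled they went from 368 to 529 CPM, up, while ITPR3 went from 4.69 to 4.31 CPM, down. The part of the fibroblast markers in the ITPR3 values was not tested.

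PRKCD and PRKCB encode protein kinases C that respond to diacylglycerol, and PRKCB belongs to the class that also needs calcium. PRKCD (ENSMMUG00000007230), at chr2:109360743-109392134 on the plus strand, was at 349.5, 466, 509.9 and 297 CPM with uLPS and at 287, 461, 584 and 344 CPM with uLPS+MRS2578. Donors differed more than groups, with R02046 highest and a span of 0.78 between donor means against a within-donor difference of at most 0.28, both on the log2 scale. The log2 fold change was 0.03 ± 0.12 (95% interval -0.25 to 0.31, edgeR adjusted p = 0.984), -0.07 ± 0.10 with the exchange and -0.03 ± 0.13 without R02046.

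PRKCB (ENSMMUG00000014271), at chr20:22181145-22563451 on the plus strand, was at 19.2, 10.8, 10.7 and 14.7 CPM with uLPS and at 18.0, 11.2, 13.6 and 11.1 CPM with uLPS+MRS2578. R07110 was highest in each group, and the groups overlapped. Its log2 fold change was -0.03 ± 0.16 (95% interval -0.41 to 0.34, edgeR adjusted p = 0.988), -0.19 ± 0.14 with the exchange (adjusted p = 0.537) and -0.15 ± 0.15 without R02046 (adjusted p = 0.732). PRKCD made up 97.6% ± 1.11 of the RNA of both kinases per kb with uLPS and 97.7% ± 1.15 with uLPS+MRS2578. The log2 ratio of PRKCB to PRKCD changed by -0.05 ± 0.38 (SD, exact sign-flip permutation test, p = 1, n = 4).

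Donors differed widely for several members. The highest and lowest donor, by the mean of both libraries, differed 4.46-fold for PLCB2, 2.53-fold for ITPR1, 1.72-fold for PRKCD and 1.68-fold for PRKCB. They differed by 1.38-fold for ITPR2, 1.37-fold for ITPR3 and 1.20-fold for PLCG2. GNAQ, GNA11 and PLCB3 differed by at most 1.07-fold between donors. Donor means of ITPR1 were 74.7, 69.8 and 73.1 CPM in R07110, R12016 and R02046 and 28.9 CPM in R14143, so that 1 animal set its spread.

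The genes whose log2 CPM followed PLCB2 most closely over the 8 libraries were VPS37B (Pearson r = 0.978), TRIM16 (0.977), ENSMMUG00000041525 (0.967), MARVELD2 (0.956) and MICAL2 (0.954). This is a description over libraries that come in pairs from 4 animals. Each of the 5 genes had its largest within-donor difference in R12016, as PLCB2 did, with 3.43 for TRIM16 and 4.03 for MARVELD2 on the log2 scale. Among the members, r with PLCB2 ran from -0.64 for GNA11 to 0.45 for PRKCB.

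Around the members, 14 lists held 148 other genes of the pathway, of which 144 were found and 113 passed the filter on low counts. With the deposited labels, edgeR's test called 0 of the 113 at an adjusted p of 0.05, as it did 0% of all genes. An unadjusted p under 0.05 was found for 4, and for 5.14% of all genes. These 4 were ITPKB and PRKCA with positive and RGS16 and FCER1G with negative log2 fold changes (named after their values were seen). With the exchange, 1 of the 113 was called, RASGRP1, against 0.618% of all genes. An unadjusted p under 0.05 was then found for 20 of the 113, against 16.5% of all genes, and 17 of these 20 were lower. The direction of all genes at this unadjusted threshold was not counted. At the stricter adjusted threshold, 63 of the 75 genes called among all genes were lower, which cannot be set directly against the 17 of 20. Without R02046, 0 of 114 were called, as were 0% of all genes. There 17 had an unadjusted p under 0.05, against 13.6% of all genes. The gene that leads each list below is the one with the highest mean CPM, which is not divided by length. The median log2 fold change of the 113 genes was -0.01 with the deposited labels and -0.04 with the exchange.

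RASGRP1, an exchange factor for Ras that diacylglycerol recruits, was at 68.3, 101.5, 7.68 and 31.1 CPM with uLPS and at 33.1, 35.1, 20.6 and 15.8 CPM with uLPS+MRS2578, in R07110, R12016, R02046 and R14143. It was lower with the antagonist in the 3 donors whose labels are not in question and higher in the library so labelled from R02046. Its log2 fold change was -0.65 ± 0.44 with the deposited labels (SE; edgeR adjusted p = 0.883), -1.23 ± 0.13 with the exchange (adjusted p = 0.0249) and -1.19 ± 0.14 without R02046 (adjusted p = 0.124). MARCKS, a major substrate of protein kinase C and the most abundant gene of the same list, was at 294 ± 134 CPM with uLPS and 239 ± 90.1 with uLPS+MRS2578 (SD, n = 4). Of the 8 tested genes of this list, 5 had negative values with either assignment.

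Upstream of the members, 12 of 21 listed Gq-coupled receptor genes were tested and 0 were called with either assignment, where 0% and 0.618% of all genes were. With the exchange, 3 of the 12 had an unadjusted p under 0.05, all of them lower, against 16.5% of all genes. P2RY6, the target of MRS2578, was at 72.0 ± 19.2 CPM with uLPS and 72.8 ± 28.3 with uLPS+MRS2578 (SD, n = 4), with within-donor differences of -0.41, -0.09, 0.23 and 0.16 on the log2 scale in R07110, R12016, R02046 and R14143. PTAFR, the receptor for platelet-activating factor and the most abundant of this list, was at 133 ± 33.2 and 124 ± 21.5 CPM. Its log2 fold change was -0.095 ± 0.178 as deposited (edgeR adjusted p = 0.952) and -0.36 ± 0.11 after the exchange (adjusted p = 0.162). GNA15, a Gq-class subunit of blood cells, was at 171 ± 34.5 CPM with uLPS and 146 ± 15.3 with uLPS+MRS2578, and its log2 fold change was -0.21 ± 0.12 as deposited (edgeR adjusted p = 0.877) and -0.27 ± 0.09 after the exchange (adjusted p = 0.198). GNA14 averaged 0.811 CPM over the 8 libraries. GNAI2 led the other alpha subunits at 948 ± 84.1 and 918 ± 150.1 CPM, and GNB1 led the beta and gamma subunits at 482 ± 24.4 and 448 ± 31.0 CPM. The brakes on the route, RGS proteins that speed GTP hydrolysis and GRK kinases that silence receptors, had 5 positive and 8 negative values among 13 as deposited, and the exchange turned this to 8 positive and 5 negative. Their most abundant gene, GRK2, was at 178 ± 18.3 CPM with uLPS and 162 ± 26.4 with uLPS+MRS2578.

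Of the other phospholipase C genes, 6 of 12 passed the filter, and the beta-type PLCB1 and PLCB4 averaged 0.275 and 0.123 CPM over the 8 libraries. PLCD4 was the most abundant at 74.3 ± 1.89 CPM with uLPS and 69.5 ± 5.20 with uLPS+MRS2578. PIP2-synthesising enzymes, led by PIP4K2A at 275 ± 51.4 and 263 ± 85.5 CPM, had a median log2 fold change of -0.00593 over 11 genes. Of the 6 tested genes of IP3 metabolism, 5 had positive values with either assignment and the median was 0.22 with the deposited labels and 0.18 with the exchange. IMPA1, an inositol monophosphatase and the most abundant of them, was the gene with a negative value, at 28.0 ± 2.54 and 25.2 ± 5.49 CPM. Diacylglycerol kinases, which remove diacylglycerol, were led by DGKZ at 133 ± 6.16 and 125 ± 8.45 CPM, and 5 of 8 had positive values with the deposited labels. Among the other protein kinase C and D genes, 7 of 10 were tested, and PRKCH led them at 67.0 ± 15.1 and 68.6 ± 26.0 CPM.

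For calcium handling, 10 of 14 genes of store and entry were tested, 5 in each direction with the deposited labels. ATP2A2, the pump that fills the endoplasmic reticulum, led them at 512 ± 63.8 and 532 ± 59.9 CPM. CAMK2D led the calmodulin and calmodulin kinase genes at 160 ± 48.4 CPM with uLPS and 129 ± 11.8 with uLPS+MRS2578. In the tyrosine kinase route to PLCG2, which holds kinases and adaptors such as SYK, BTK and LYN, 9 of 10 genes had negative values with the deposited labels, with a median of -0.15, and 9 of 10 with the exchange, with a median of -0.24. The median over all genes was -0.01 and 0.00117. PIK3AP1, the adaptor that was most abundant there, was at 1309 ± 462 CPM with uLPS and 1042 ± 126 with uLPS+MRS2578. None of the 10 was called in either assignment, where 0% and 0.618% of all genes were called. An unadjusted p under 0.05 was found for 1 and 5 of them, against 5.14% and 16.5% of all genes. Without R02046, 10 of 10 had negative values, and 3 had an unadjusted p under 0.05, against 13.6% of all genes. The summed microglia and macrophage markers went from 3771 to 3351 CPM in R07110, from 4480 to 3761 in R12016 and from 3343 to 2887 in R14143, and from 3597 to 3917 in R02046 as labelled. TREM2 and TYROBP belong to both lists, and the part of these markers in the values of the tyrosine kinase list was not tested.

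**Figure D4:**
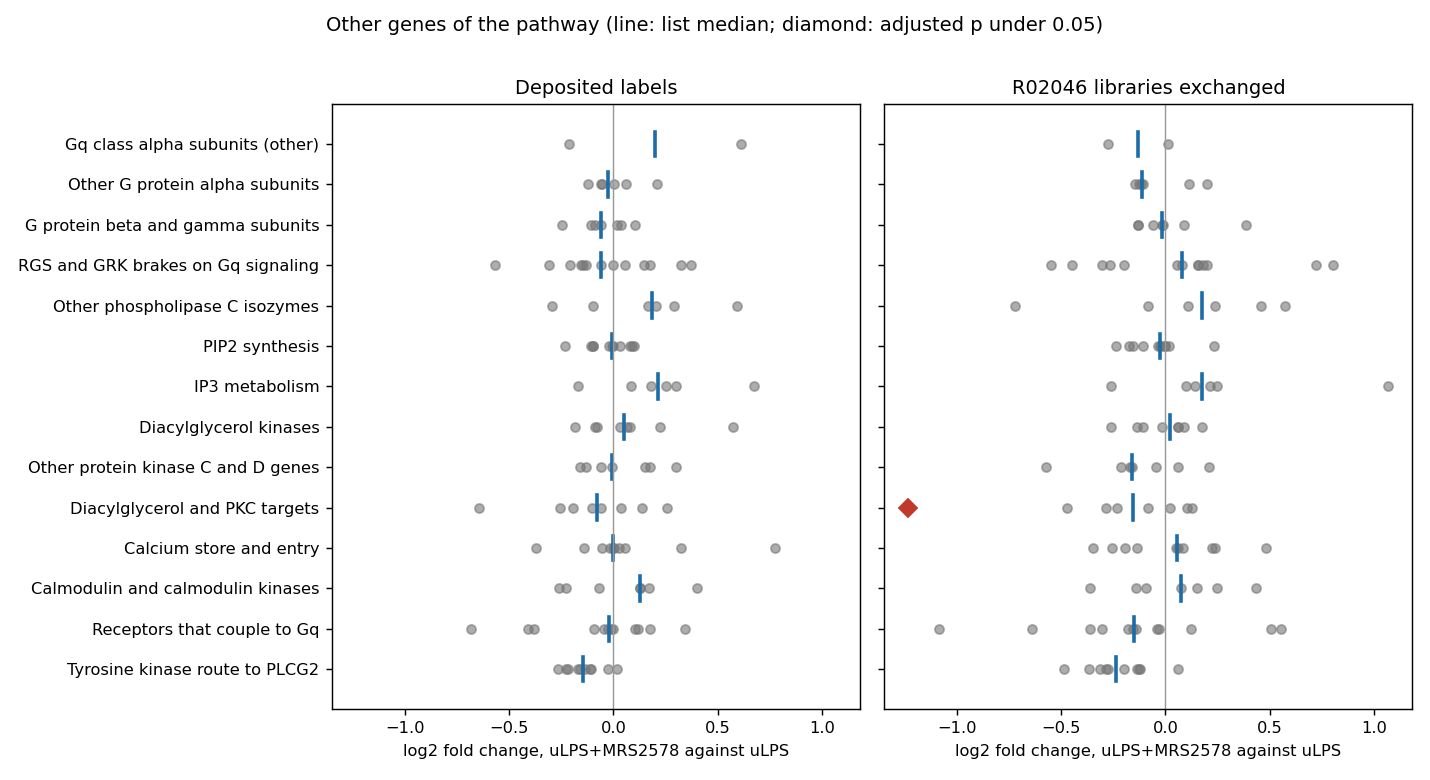
Log2 fold change (uLPS+MRS2578 against uLPS) of the 113 tested genes of the pathway around the members, by list, with the deposited labels (left) and with the R02046 libraries exchanged (right); points are genes and lines are list medians. RASGRP1, the diamond at -1.23 on the right, is the only gene past the adjusted threshold, and the tyrosine kinase list lies almost wholly below 0 in both panels.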

How the data were processed

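RNA was measured in 8 libraries from 4 donors. The deposited values are whole-number counts per Ensembl gene, which the authors made without normalization, by alignment to Mmul_10 and counting of unique reads within exons. The paper's methods name fastp, STAR, SAMtools and HTSeq, whereas the submitters' processing notes list Trimmomatic (0.30), TopHat2 (2.0.14), SAMtools (1.3) and HTSeq (0.6.1p1), and the strand setting is not given in the sources used here. Libraries were made with a directional kit.

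Counts were analysed in R (4.3.3) with edgeR (4.0.16), limma (3.58.1) and DESeq2 (1.42.0). Genes were kept by filterByExpr (minimum count 10), scaled by TMM and tested by quasi-likelihood in edgeR, with the donor blocked and p adjusted over all genes after Benjamini-Hochberg, at 0.05. Both libraries of a donor come from 1 animal, and their deviations from the group means correlated at 0.602, 0.552, 0.458 and 0.562. P-values of the sign-flip test rest on how the difference within an animal varies over these 4 animals. Those of the blocked fit rest on the same variation, moderated by that of the other genes. No library was a duplicate, as the lowest chi-square per degree of freedom over 28 pairs was 19.7. A prior count of 2 was used for log2 CPM, and SE was derived from the F statistic. Exon lengths and positions were read from NCBI's Mmul_10 annotation, which may differ from the annotation behind the counts. The test was also run on simulated counts with known changes. These had the same dispersion for every gene and no differences between donors, unlike the present data.

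The named genes are all members, any pathway gene with an adjusted p under 0.05 with the deposited or exchanged labels, the most abundant gene of each list, and the 5 genes most correlated with the member of largest fold change. The members and lists were chosen with earlier results of these data known. Alternatives were the exchange of R02046, each donor left out, no block, other scalings, filters, prior counts and tests, and another exon length. Those added after seeing the data were edgeR's earlier estimation and further settings with the exchange. The comparison of the ITPR1 coding sequence is not reported here.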

Additional observations from a re-analysis of the deposited data

Results flagged for a closer look

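The value of 1 library lay far from the other 3 of its group in 2 of the 20 sets of 4 libraries examined, by Dixon's criterion, and chance flags about 1 in 20 such sets. GNA11 in the uLPS+MRS2578 library of R12016 was at 5.11 log2 CPM, against 5.20 to 5.22 in the others, a gap of small absolute size. PLCG2 in the library of R02046 labelled uLPS+MRS2578 was at 7.22 log2 CPM, against 6.80 to 6.85 in the others.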

How the results depend on the processing

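The exchange of the R02046 libraries turned the log2 fold changes of GNAQ (0.0626 to -0.0986), PLCG2 (0.0116 to -0.141), ITPR2 (0.118 to -0.244) and PRKCD (0.0272 to -0.0714), and the mean changes of the log2 ratios GNAQ to GNA11 (to -0.0735) and ITPR3 to ITPR2 (to 0.22). It also took the count of called genes from 0 to 75 and of called pathway genes from 0 to 1. DESeq2's Wald test called 1 gene with the deposited labels. With the exchange, it called 583 genes, 6 of them in the pathway lists, and PLCB2 (log2 fold change 1.19, DESeq2 adjusted p = 0.00988, range over the alternatives with the exchange 0.00988 to 0.900). In that assignment, edgeR's earlier estimation called 39 genes, and the fit without the replicate block called 0 genes and 0 pathway genes. Without the block, no member was called with either assignment. Leaving out 1 donor gave 0 to 919 genes with the exchange and 0 to 10 pathway genes, with 0 genes without R07110 or R02046, 5 without R12016 and 919 without R14143. Without R14143, ITPR1 (-0.72, edgeR adjusted p = 0.00948) and ITPR2 (-0.46, adjusted p = 0.0400) were called with the exchange. Leaving out 1 donor with the deposited labels, the log2 fold change ran from -0.0254 to 0.13 for GNAQ, -0.0957 to 0.000997 for GNA11, -0.0872 to 0.0698 for PLCG2, -0.38 to 0.14 for ITPR1, -0.0852 to 0.282 for ITPR2, -0.31 to 0.33 for ITPR3, -0.0375 to 0.126 for PRKCD and -0.150 to 0.0970 for PRKCB. With the exchange it ran from -0.0725 to 0.0240 for GNA11 and from -0.26 to 0.42 for ITPR3. The log2 ratio of ITPR3 to ITPR2 ran from -0.59 to 0.29 and that of PRKCB to PRKCD from -0.13 to 0.14. Scaling by total counts alone gave mean differences of 0.0119 for GNA11 and 0.0320 for PRKCB, both negative after TMM. With the longest transcript in place of all exons, 8 of 10 members kept their place in the order per kb, GNA11 and PLCB3 trading places. The causes were not tested. ITPR3 and PLCB2 had as few as 44 counts in a library.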
